A study of Mus musculus with 6 samples.

Results

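Transfected Clk/Clk cells were compared with transfected wild type cells on 2 of the 6 arrays of the series. The samples were chosen by their titles, which give the genotype and the vector, and each side held 1 array. All 6 samples were cultures of mouse embryonic fibroblasts, connective tissue cells grown from embryos, with ICR as the labelled strain. The wild type cells on the reference side and the Clk/Clk cells, which the series design calls Clock mutants, had both been given the vector for H-Ras and SV40T. The remaining arrays were mock cells of both genotypes, which serve below as a second pair that shares no array with the transfected pair, and mock and transfected Per2m/m cells, mutants of Per2. The labels do not state which change the Clk allele carries, whether a culture came from 1 embryo or several, how long after transfection RNA was taken, at which phase of the circadian cycle, or whether the H-Ras was an activated form. With 1 array a side there is no spread between cultures, no p-value is given, and a difference sets these cultures against each other, genotype together with everything else that differed between them.

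CLOCK pairs with BMAL1, the product of Arntl, and the pair binds E-box sequences in the promoters of Per, Cry, Rev-erb (Nr1d) and PAR-bZIP genes such as Dbp and Tef. PER and CRY proteins then return to block the pair, which closes a loop of about a day. H-Ras is a small GTPase that drives the ERK kinase pathway when activated, and the SV40 T antigen binds and blocks the tumour suppressors p53 and RB. Fibroblasts also carry an innate antiviral system, in which receptors for interferon act through transcription factors such as STAT2 and IRF9 on a set of interferon-stimulated genes.

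A level is the log2 processed signal of a probe minus the 75th percentile of its own array, so a level of 0 marks a probe at that percentile and a difference of 1 is 2-fold. Both arrays were read on 1 slide, in 1 slide row and on 1 scan date. They carried 59305 spots each that were not controls, of which 56.3% were well above background in transfected wild type and 53.5% in transfected Clk/Clk cells, and 0 were saturated. The 75th percentile of the signal was 634 and 377 in the same order, while the medians of 28.1 and 26.1 lay close together. Repeated spots of a probe gave a spread of 0.08 (log2) for a ratio of both arrays, and the scanner's own error model a median of 0.22 for genes at least 2-fold apart. Both cover spot noise only. Where the dimmer array was not well above background, the change is a bound, at least N-fold, against whichever was higher on that array, the probe's signal there or the dimmest level still well above background (-5.47 in transfected wild type and -4.52 in transfected Clk/Clk cells).

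Of 17283 named genes read on at least 1 array, 15711 were well above background on the brighter array of the transfected pair. Among them 2382 (15.2%) were at least 2-fold higher and 1896 (12.1%) lower by as much in transfected Clk/Clk cells, together 27.2%, with no replicate behind any of them. Counts here and for the lists use measured levels, dim ones included. Every count of list or marker members below is to be read beside these shares of 15.2% and 12.1%. Among the 14099 genes well above background on both arrays 1701 were higher and 1382 lower by as much. By measured levels, 353 genes were 16-fold or more above wild type and 73 as far below it. The dimmest level still well above background was -5.47 in transfected wild type and -4.52 in transfected Clk/Clk cells. Downward differences therefore had less room on this scale, and the part of this in the split was not tested. The median over all genes was -0.18. With each array scaled to its median instead, that value became -0.83 and the split 1435 higher and 6562 lower, so differences close to 0 take their sign from the scaling, and lists are read below against the median of all genes. Without a filter on dim probes 7212 genes were higher. In the mock pair 11.3% of 16028 genes were at least 2-fold higher and 11.4% lower in Clk/Clk cells, together 22.7%. Between transfected and mock cells of 1 genotype, 20.7% of genes were at least 2-fold apart for wild type and 8.88% for Clk/Clk cultures. Across all probes the levels of mock and transfected Clk/Clk cells correlated at 0.981, and those of both transfected arrays at 0.938.

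**Figure D1:**
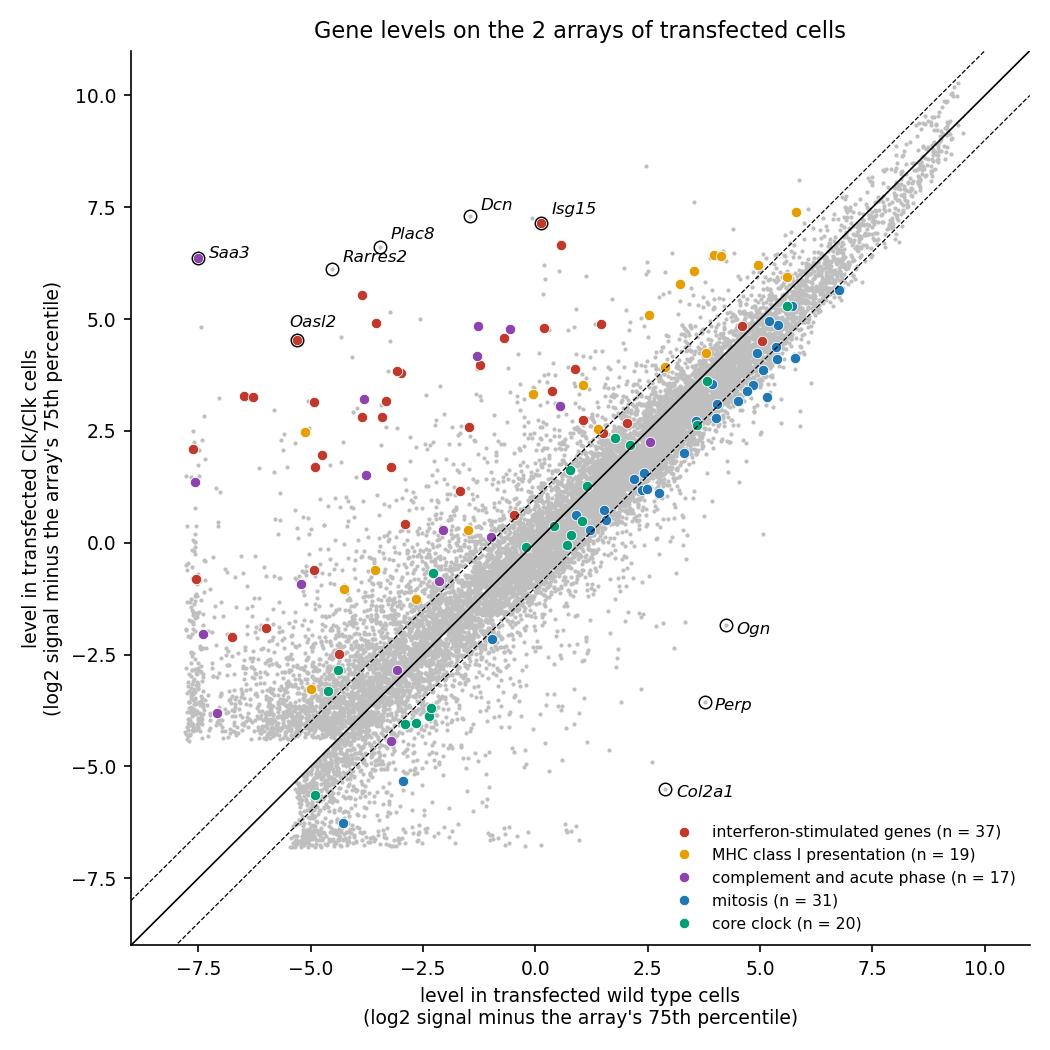
Level of each of the 15711 genes measured in the transfected pair (grey points; log2 signal minus the array's 75th percentile), with transfected wild type cells on the x axis and transfected Clk/Clk cells on the y axis. The solid line marks equal levels and the dashed lines 2-fold. Coloured points are the members of 5 gene lists, with the interferon-stimulated genes mostly far above the line and the mitosis genes just below it, and open circles mark the genes named by a label.

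Markers of the labelled cell type were present in both samples. All 13 fibroblast markers on the array were well above background in transfected Clk/Clk cells and 11 in transfected wild type cells. Their levels were not alike. By measured levels 6 of the 13 were at least 2-fold higher in transfected Clk/Clk cells and 3 lower by as much, with a median difference of 0.59. The differences ran from -2.25 for Col3a1 to 9.13 for Lum, the latter at least 123-fold as a bound. The collagen gene Col1a2 stood at 8.85 in transfected wild type and 8.33 in transfected Clk/Clk cells, and the intermediate filament gene Vim at 8.16 in transfected wild type and 7.09 in transfected Clk/Clk cells. Lum and Fap, a matrix proteoglycan and a surface protease, were the 2 markers not well above background in transfected wild type cells. Of macrophage markers 8 of 14 were well above background on each of both arrays, and their summed level was 4.58 in transfected wild type and 5.82 in transfected Clk/Clk cells on the log2 scale. Itgam, an integrin of myeloid cells, stood at 4.28 in transfected wild type and 5.65 in transfected Clk/Clk cells and Csf1r, the receptor of the macrophage growth factor, at 0.36 in transfected wild type and 1.56 in transfected Clk/Clk cells, and in all 4 of 9 measured macrophage markers were at least 2-fold higher and 1 lower. The defining myeloid genes Tyrobp, Lyz2, C1qa and C1qc were not well above background on either array, and the pan-leukocyte gene Ptprc stood at -5.25 in wild type and was not well above background in Clk/Clk cells. Of 15 epithelial markers 8 were well above background in transfected wild type and 9 in transfected Clk/Clk cells, with summed levels of -0.06 and 0.35, and 3 of 9 measured were 2-fold or more higher and 1 lower, while Cdh1 and Krt8 were not well above background on either array. Of 11 endothelial markers the counts were 5 and 4, the summed levels 2.90 and 2.96, and 2 of 5 measured were higher and 0 lower, while Emcn and Vwf were not well above background on either array. Less RNA per cell and fewer cells of a type cannot be told apart in these samples, and the part of other cell types in the differences below was not tested.

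The genes named by the design were read next. Clock, read by a probe at chr5:76641377-76641436 on build mm9, stood at 0.70 in transfected wild type and -0.05 in transfected Clk/Clk cells, a difference of -0.75, and its mock difference was -0.79. Both Clk/Clk arrays lay below both wild type arrays. The probe's place relative to the Clk change is not known, so this value checks no label. Hras, read at chr7:148377296-148377355, stood at 4.17 and 4.01 on the mock and transfected wild type arrays and 3.23 and 3.86 on the Clk/Clk arrays. Its difference in the transfected pair was -0.14, less than the scanner's error of 0.20, and a dimmer second probe gave -0.15. The level in transfected cells was 0.64 above mock in Clk/Clk and -0.17 relative to mock in wild type cells, and neither labels nor headers name the species of the transfected H-Ras. Xist, the non-coding RNA of X inactivation, stood at -0.95 in transfected wild type cells and was not well above background in transfected Clk/Clk cells, at least 11.8-fold lower, while the Y-linked genes Ddx3y, Eif2s3y and Uty were well above background on both arrays. The wild type cultures held Xist together with Y-linked RNA and the Clk/Clk cultures Y-linked RNA without Xist above background, in the mock pair as well. The part of this mixture in any difference was not tested.

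Interferon-stimulated genes had the highest median difference of the lists. Of 37 measured members 33 were higher by 2-fold or more and 0 lower by as much, with a median of 5.20 against -0.18 over all genes, where 15.2% of genes were that much higher. With dim members at their bound the median was 4.91. The list had a median level of -1.75 on the mock and -3.22 on the transfected wild type array and of 2.63 and 2.81 in Clk/Clk cells. In 36 of 37 members both Clk/Clk arrays lay above both wild type arrays, as did 23.3% of all genes measured in both pairs. The mock pair had a median of 4.25.

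The letters GAAA, any 2 bases and GAAA again form the core of the interferon-stimulated response element to which STAT and IRF complexes bind. RefSeq promoter windows (GRCm38.p6, 250 bases before to 50 after a start) were at hand for 26 of 37 members, and 15 of these held the letters on either strand, against 3.99% of the 27025 genes of the table and 3.65% of the measured genes with a window. Since fewer than 80% of the list and of all measured genes had a window, a comparison of shares is void. The stretches of 7 members with large differences are printed to show the repeats beside the values, all from the 250 bases before the start, 5′ to 3′ along the gene, with each match in capitals (TTTC, any 2 bases and TTTC is the same pattern on the other strand, and neighbouring matches overlap in some stretches). The element was searched for after the values were seen, and only members that hold it were picked for printing. Oasl2, Ifi44 and Irf7, with differences of 9.84, 9.78 and 8.09, had windows without the letters. A match describes these letters and not a bound site.
Oas1a: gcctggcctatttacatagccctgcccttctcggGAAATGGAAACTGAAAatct
Isg15: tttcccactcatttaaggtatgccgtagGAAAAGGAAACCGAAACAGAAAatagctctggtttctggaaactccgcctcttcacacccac
Ifit3: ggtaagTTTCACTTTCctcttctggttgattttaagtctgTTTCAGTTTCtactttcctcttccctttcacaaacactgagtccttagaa
Rsad2: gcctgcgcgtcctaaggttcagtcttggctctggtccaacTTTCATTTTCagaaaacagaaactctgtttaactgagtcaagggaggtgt
Gbp3: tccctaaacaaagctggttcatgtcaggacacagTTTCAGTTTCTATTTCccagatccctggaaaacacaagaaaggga
Ifit1: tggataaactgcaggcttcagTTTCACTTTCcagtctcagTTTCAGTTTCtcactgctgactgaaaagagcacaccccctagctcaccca
Igtp: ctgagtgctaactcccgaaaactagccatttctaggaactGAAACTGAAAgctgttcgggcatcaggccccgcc
These stretches lie for Oas1a at chr5:120907526-120907579 (minus strand), Isg15 at chr4:156200835-156200924 (minus strand), Ifit3 at chr19:34583367-34583456 (plus strand), Rsad2 at chr12:26456523-26456612 (minus strand), Gbp3 at chr3:142559965-142560043 (plus strand), Ifit1 at chr19:34640764-34640853 (plus strand) and Igtp at chr11:58199482-58199555 (plus strand).

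The oligoadenylate synthetases, which answer double-stranded RNA by activating RNase L, were among the furthest apart. Oas1a stood at -0.71 and -3.86 on the mock and transfected wild type arrays and 5.18 and 5.53 on the Clk/Clk arrays. Its transfected difference of 9.39 is 670.1-fold, and a second probe gave 7.91. Oasl2, a further member of the family, stood at -3.44, -5.29, 4.27 and 4.54 in the same order of arrays, a difference of 9.84 or 914-fold. Oas2 was not well above background on either wild type array and stood at 3.26 in transfected Clk/Clk cells, at least 423-fold higher. For each of these genes both Clk/Clk arrays were high and both wild type arrays low. Oas1b was the exception within the family, at 4.60 in transfected wild type and 4.84 in transfected Clk/Clk cells, a difference of 0.24 by its brightest probe, while its 3 probes ranged up to 3.15. The Oas1 genes are close copies of each other, so their probes may share signal.

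Genes of the other antiviral arms followed the same order of arrays. Isg15, a ubiquitin-like protein attached to other proteins, stood at 1.85, 0.13, 6.75 and 7.16 with the arrays again in that order, 130.5-fold higher in the transfected pair. Usp18, the protease that removes ISG15, stood at -1.25, -3.55, 4.36 and 4.90 and was 350.5-fold higher. Ifit1 and Ifit3, which bind foreign RNA, differed by 6.49 and 6.79. Mx2, a dynamin-like GTPase, differed by 6.71, Gbp3 and Igtp, GTPases that act on intracellular microbes, by 6.67 and 6.23, and Bst2, which tethers virus particles to the membrane, by 6.08. Rsad2, which encodes viperin, was not well above background in transfected wild type cells and at least 25.1-fold higher in transfected Clk/Clk cells, and Ifi44 likewise at least 432-fold higher. At the other end, Ifit2 was 2.14-fold higher and Irf1 differed by 0.64, and Ifi27 was the single member below 0 on this scale, at -0.53. Its neighbour Ifi27l2a, outside the list, stood at -0.06 in transfected wild type and 7.25 in transfected Clk/Clk cells.

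The steps upstream of these genes were read from 3 lists drawn up after the values were seen. The interferon ligand genes were dim. Of 15 on the array 9 were well above background on at least 1 of 6 arrays and 5 on both transfected arrays, the highest at -1.73 (Ifnl3, transfected wild type). None of the 8 measured was 2-fold higher in transfected Clk/Clk cells. By measured levels 2 were at least 2-fold lower (25%, beside 12.1% of all genes), Ifnk at -2.18 and Ifna2 at -1.15. Their bounds, at least 1.1-fold and at least 1.83-fold lower, stay under 2-fold. Ifnb1, the interferon that fibroblasts mainly make, was not well above background on any of the 6 arrays, so no ratio was formed. Its signal read -7.16 and -7.42 on the mock and transfected wild type arrays and -4.41 and -4.13 on the Clk/Clk arrays. The Clk/Clk values lay at the edge of detection, where the dimmest levels still well above background were -4.62 and -4.52. Whether Ifnb1 differed was not tested. Receptor and kinase genes differed little, with Ifnar1 at -0.54, Ifnar2 at -0.03, Jak1 at -0.53 and Tyk2 at -0.40. Genes of the transcription factors STAT2 and IRF9 were higher. Stat2 stood at 0.85, 0.20, 4.75 and 4.80 and Irf9 at 0.92, 0.36, 3.25 and 3.39 in the order of arrays above, 24.3-fold and 8.15-fold higher in the transfected pair. Irf7, which amplifies interferon production, stood at -3.67, -4.93, 1.09 and 3.16 and was 272-fold higher.

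Among 16 measured genes of nucleic acid sensing 9 (56.25%, beside 15.2% of all genes) were at least 2-fold higher and 0 lower. Zbp1, a sensor of left-handed nucleic acid helices, stood at -4.25, -4.06, 2.33 and 2.91 and differed by 6.97. The RNA helicases Ifih1, Dhx58 and Ddx58 differed by 4.91, 3.32 and 3.01, the kinase Eif2ak2, which halts translation on double-stranded RNA, by 2.45, and the RNA editor Adar by 2.17. These 6 genes are themselves known targets of interferon. Among adaptors, kinases and factors further down, Sting1 and Ikbke were 2.56-fold and 2.38-fold higher, while Mavs differed by -0.46, Tbk1 by -0.31, Irf3 by -0.11 and the DNA sensor Cgas by -0.43, although the probes of Cgas ranged from -0.43 to 0.73. Socs1, a feedback inhibitor of JAK signalling, differed by -0.92 in the transfected pair and by 1.82 in the mock pair. In transfected Per2m/m cells, which share the wild type array as reference, Irf7 and Oas1a were not well above background and Stat2 stood at 1.33. Other members were raised there as well, with Trim30a and Oasl2 higher than in transfected wild type cells by 6.6 and 3.43. The interferon-stimulated list had a median level of -1.3 in transfected Per2m/m cells. That lies between the -3.22 of transfected wild type and the 2.81 of transfected Clk/Clk cells.

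**Figure D2:**
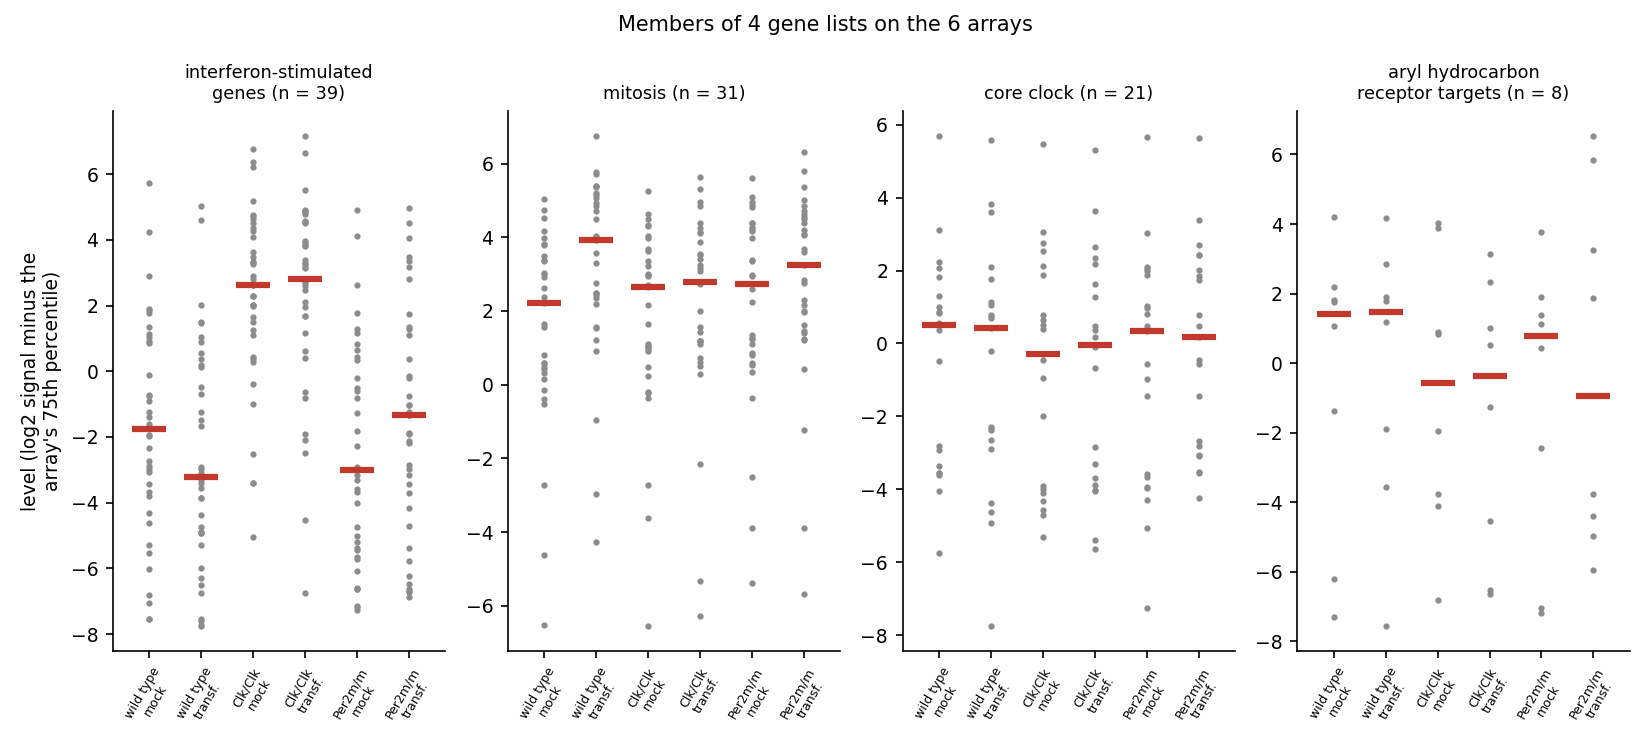
Levels of the members of 4 gene lists on each of the 6 arrays (grey points, 1 per gene; red bars, medians; y axis, log2 signal minus the array's 75th percentile). The interferon-stimulated genes have medians of 2.63 and 2.81 on both Clk/Clk arrays and below 0 on the other 4, whereas the mitosis genes are highest in transfected wild type cells, at a median of 3.92.

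Class I antigen presentation was higher as well, by a smaller amount. Of 19 measured genes 17 were at least 2-fold higher (89.5%, beside 15.2% of all genes) and the other 2 lay above 0, with a median of 2.28 and 1.40 in the mock pair. Under the scaling to array medians, which lowers every difference alike, the list median was 1.61 and the other 2 lay below 0. The median level of the list was 2.54 in transfected wild type, 3.94 in transfected Clk/Clk and 3.61 in transfected Per2m/m cells, so high levels were not particular to Clk/Clk. Psmb8, a subunit of the immunoproteasome, which cuts peptides for presentation, stood at -2.67, -5.13, 1.26 and 2.48 on the wild type mock and transfected and Clk/Clk mock and transfected arrays, a 194-fold difference, and its partner Psmb9 differed by 2.95. Nlrc5, which activates class I genes, differed by 3.21. B2m, the invariant light chain, was bright on every array at 6.20, 5.81, 7.19 and 7.40, a difference of 1.59. The heavy chains H2-K1 and H2-D1 differed by 2.46 and 2.28, the peptide transporter Tap1 by 1.41 and Psmb10 by 0.45. The H2 genes are near-identical copies and their probes may not be separable.

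Complement and acute phase genes formed the next list, with 14 of 17 measured members 2-fold or more higher and 1 lower by as much. These are 82.4% and 5.9%, beside 15.2% and 12.1% of all genes. The median was 4.28 (2.97 in mock cells). Saa3, an acute phase apolipoprotein, had the largest bound among genes whose probes went the same way. It was not well above background on either wild type array, stood at 6.93 and 6.36 on the mock and transfected Clk/Clk arrays and was at least 3625-fold higher in the transfected pair. C3, the central complement protein, stood at -0.96, -1.27, 4.41 and 4.86 and was 69.8-fold higher, with 9.02 by a dimmer probe, and the proteases C1s1 and C2 differed by 5.35 and 7.05. Cfb, the protease of the alternative pathway, was at least 114-fold higher. The inhibitor of the same cascade Serping1 differed by 5.29, haptoglobin (Hp) by 4.28 and lipocalin (Lcn2) by 1.27.

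Chemokines and cytokines were mixed. Chemokines counted 10 of 18 measured members 2-fold or more higher and 2 lower by as much, or 55.6% and 11.1% beside 15.2% and 12.1% of all genes. Ccl8 and Ccl11, which attract monocytes and eosinophils, were not well above background in transfected wild type cells and at least 239-fold and at least 17.6-fold higher in transfected Clk/Clk cells. Cxcl10, an interferon-induced attractant of T cells, stood at -3.35, -1.65, 3.90 and 2.62, a difference of 4.26, and the neutrophil attractants Cxcl5 and Cxcl1 differed by 4.53 and 2.87. Cx3cl1 and Ccl9 were lower, at -2.54 and -3.23. Among cytokines and growth factors 12 of 27 were at least 2-fold higher and 6 lower, and their median of 0.62 became -0.04 with arrays scaled to their medians. Il6 stood at 1.84, -3.43, 3.95 and 3.08 and was 91.5-fold higher. Csf2 was at least 35.9-fold higher. Il33, an alarmin, and Il34, a ligand of the CSF1 receptor, ran the other way at -4.25 and -3.87, and Il18 was at least 11.2-fold lower.

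Clock genes differed far less. Core clock genes counted 3 of 20 measured members 2-fold or more higher and 4 lower by as much, a median of -0.24 near the -0.18 of all genes, and shares of 15% higher and 20% lower against 15.2% and 12.1% of all genes. The median was -0.46 in mock cells, and it moved from -0.91 with arrays scaled to their medians to 0.019 in the deposited quantile-normalized table, so its sign depends on the scaling. The 4 genes at least 2-fold lower were all repressors of the CLOCK pair. Per2, read at chr1:93313046-93313105 (mm9), stood at -3.36, -2.38, -3.91 and -3.88 on the wild type mock and transfected and Clk/Clk mock and transfected arrays, a transfected difference of -1.50, with the transfected wild type array highest. Cry1 stood at -3.55, -2.65, -4.10 and -4.02 and differed by -1.37, Per3 by -1.14 and Ciart, a repressor of the CLOCK pair, by -1.37. These 4 probes were dim, between -4.05 and -2.32 on both transfected arrays, with scanner errors of 0.28 to 0.33. Per1 and Cry2, the other genes of PER and CRY proteins, were bright and differed by 0.58 and 0.07, and a second probe of Per1 gave -0.75.

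The activators and outputs showed no common direction. Arntl stood at 1.31, 0.79, 0.78 and 0.17, a transfected difference of -0.62, and its paralogue Arntl2 at 0.38, 0.76, 1.87 and 1.64, a difference of 0.88. Npas2, the paralogue of Clock, was not well above background on the brighter array of the pair and has no value. Nr1d1, the Rev-erb alpha gene that represses Arntl, stood at 0.56, -0.21, -0.95 and -0.10. Its transfected difference was 0.11 and its mock difference -1.51, and the mock wild type array was the highest of the 4. Dbp, a PAR-bZIP output gene used as a readout of CLOCK activity, stood at 3.21, 1.78, 2.04 and 2.19, so that its difference was 0.41 in transfected and -1.16 in mock cells. Tef differed by -0.82. Rora and Rorb, activators of Arntl, differed by 1.61 and 1.54. Bhlhe41, which is also a repressor of the CLOCK pair, differed by 1.30 from its brighter probe, while its second probe gave -0.11. Over the output list 2 of 16 genes were at least 2-fold higher and 4 lower (12.5% and 25%), with a median of 0.02. The 4 lower genes were Per2, Cry1, Ciart and Per3, already counted in the core clock list. Bhlhe41, among the higher, is in both lists as well. The deubiquitinase gene Usp2 had the highest difference of the output list, 2.29.

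CACGTG is the E-box read by the CLOCK pair. It stood on either strand in the promoter window of 4 of 16 core clock genes with a window and 5 of 13 output genes, against 8.09% of the 27025 genes of the table. Among measured genes with a window it stood in 11% in all, in 8.66% of those at least 2-fold higher and in 10.8% of those at least 2-fold lower, with windows for 76.0%, 68.8% and 76.7% of these sets, so that comparison is void for want of windows. The 5 clock genes that hold it span the range of differences, from -1.37 for Cry1 and -1.37 for Ciart over -0.82 for Tef and 0.58 for Per1 to 1.30 for Bhlhe41, and their stretches are printed for that reason, again before the start, 5′ to 3′, with CACGTG in capitals.
Cry1: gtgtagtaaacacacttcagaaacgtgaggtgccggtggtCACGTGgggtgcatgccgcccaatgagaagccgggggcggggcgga
Ciart: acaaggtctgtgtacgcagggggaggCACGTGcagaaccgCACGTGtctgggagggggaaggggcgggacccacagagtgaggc
Tef: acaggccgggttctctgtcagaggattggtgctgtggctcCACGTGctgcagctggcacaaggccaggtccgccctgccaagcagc
Per1: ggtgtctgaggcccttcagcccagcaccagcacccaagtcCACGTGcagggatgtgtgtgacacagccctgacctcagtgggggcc
Bhlhe41: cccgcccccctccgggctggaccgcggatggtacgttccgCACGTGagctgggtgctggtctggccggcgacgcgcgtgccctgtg
On GRCm38.p6 these lie for Cry1 at chr10:85185069-85185154 (minus strand), Ciart at chr3:95882229-95882312 (minus strand), Tef at chr15:81802506-81802591 (plus strand), Per1 at chr11:69098743-69098828 (plus strand) and Bhlhe41 at chr6:145865528-145865613 (minus strand).

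Cell division genes were lower in transfected Clk/Clk cells. On the 75th percentile scale all 31 mitosis genes lay below 0, 18 of them at least 2-fold lower, with a median of -1.18 against -0.18 over all genes. In the mock pair the median was 0.16, beside -0.09 over all genes, and 0 were 2-fold lower. The median level of the list was 2.22 on the mock and 3.92 on the transfected wild type array, and 2.65 and 2.80 in Clk/Clk cells, and transfected wild type was the highest of the 4 arrays in 30 of 30 members read in both pairs, against 37% of all genes. Ccnb1, the cyclin of entry into mitosis, stood at 3.02, 4.50, 3.01 and 3.18, a difference of -1.33. Cdc20, which releases cells into anaphase, stood at 4.18, 5.78, 3.98 and 4.13 and differed by -1.65, and the kinesin Kif20a, needed to finish division, by -1.91. Aurka and Plk1, mitotic kinases, differed by -1.31 and -0.98. Mki67, a marker of cycling cells, and Cdk1 differed by -0.25 and -0.37 by their brightest probes, within 2-fold, and the 3 probes of Cdk1 ranged from -0.58 to 0.34. For Ccnb1 and Cdc20 the transfected wild type array was high and the other 3 lay close together.

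DNA replication genes counted 1 of 39 measured members 2-fold or more higher and 10 lower by as much, a median of -0.67 and -0.31 in mock cells, with 12.1% of all genes at least 2-fold lower. Transfected wild type was again the highest array in 36 of 39. The helicase subunits Mcm4 and Cdc45 differed by -1.12 and -1.22, the single-strand binding protein gene Rpa1 by -1.38 and the polymerase subunit Pole2 by -1.46, while Pcna, the sliding clamp, differed by -0.81 and the primase subunit Prim2 ran the other way at 1.64. The cell cycle inhibitors showed no common direction. Cdkn1c, a growth-restraining imprinted gene, stood at 1.36, -1.75, 1.44 and 1.63 and was 10.5-fold higher in the transfected pair, with a mock difference of 0.08. Cdkn1a, the main inhibitor induced by p53, differed by 0.62 by its brightest probe and by up to 1.93 by others, Cdkn2a by -0.79 and Cdkn2b by -1.47. The p53 gene itself, Trp53, differed by -0.77. Of 26 p53 targets 3 were at least 2-fold higher and 2 lower (11.5% and 7.7%, beside 15.2% and 12.1% of all genes), with a median of 0.08. Perp, a p53 target that builds desmosomes, had the lowest difference among genes read above background on both arrays. It stood at 1.21, 3.76, -5.08 and -3.56, not well above background in mock Clk/Clk cells, and was 159.6-fold lower in the transfected pair.

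Genes that report ERK signalling, the pathway below H-Ras, counted 3 of 29 measured members 2-fold or more higher and 10 lower by as much, or 10.3% and 34.5% beside 15.2% and 12.1% of all genes. Their median was -0.71 (-0.35 in mock cells), against -0.18 over all genes. Egr1, an immediate-early transcription factor, stood at 3.71, 5.00, 4.26 and 2.44 and was 5.92-fold lower. Dusp5, a nuclear ERK phosphatase, differed by -2.09, the growth regulator Myc by -1.51 and the EGF family ligand Ereg by -1.69. Areg, a further ligand of the EGF receptor, stood at -4.84, 1.14, -1.63 and -2.46 and was 12.1-fold lower in the transfected pair and higher in the mock pair, by 3.21. The feedback inhibitors Spry1 and Dusp6 were the other way, at 1.64 and 1.41, with Spred3 at 1.48. The RAS gene Nras differed by -1.29.

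Genes that handle aldehydes, oxidants and drugs bear on the title of the series, which names Aldh3a1. Aldh3a1, an enzyme that oxidises aromatic aldehydes, stood at 1.81 and 1.18 on the mock and transfected wild type arrays and 0.89 and 1.01 on the Clk/Clk arrays by its brighter probe, a transfected difference of -0.16, within the scanner's error. A second, overlapping probe was well above background in transfected wild type cells (-2.12) and not in transfected Clk/Clk cells, at least 5.29-fold lower, so both probes disagree. Of 19 measured aldehyde dehydrogenases 4 (21%, beside 15.2% of all genes) were at least 2-fold higher by their measured levels and 0 lower. Aldh1l1, which serves folate metabolism, stood at -0.28, -2.82, -0.67 and 0.73, with transfected wild type lowest, and was 11.7-fold higher. Aldh1a1, Aldh1a2 and Aldh1a7, enzymes of the retinaldehyde family, were not well above background in transfected wild type cells and at least 9.04-fold, at least 11.3-fold and at least 2.06-fold higher.

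Targets of the aryl hydrocarbon receptor, a sensor of aromatic compounds, had the lowest median of the 35 lists, -2.32 over only 7 measured genes, with 5 at least 2-fold lower, and -0.93 with normexp background correction. With dim members at their bound it was -1.84. Nqo1, a quinone reductase that NRF2 also controls, stood at 2.20, 1.77, -1.96 and -1.26 on the wild type mock and transfected and Clk/Clk mock and transfected arrays, 8.2-fold lower in the transfected pair, with both Clk/Clk arrays low. Tiparp, which shuts the receptor off, stood at 1.77, 2.84, 0.84 and 0.53 and was 4.98-fold lower. The cytochrome Cyp1b1 stood at 4.20, 4.16, 3.88 and 2.32 and differed by -1.84. The repressor Ahrr was at least 6.19-fold lower, while the bound of Cyp1a1, at least 1.94-fold lower, stays under 2-fold. Ugt1a6b, a glucuronosyltransferase, was higher by its brighter probe (2.38-fold) and lower by its second (-0.99), and shares exons with its neighbours in the Ugt1a cluster.

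NRF2 targets, which supply glutathione, thioredoxin and NADPH against oxidants, counted 1 of 24 measured members 2-fold or more higher and 6 lower by as much. These are 4.2% and 25%, beside 15.2% and 12.1% of all genes. Their median was -0.78, and -0.48 in mock cells. In 13 of 24 both Clk/Clk arrays lay below both wild type arrays, against 33.7% of all genes. Gsr, which regenerates glutathione, stood at 2.46, 3.72, 2.03 and 2.17 and differed by -1.56, G6pdx, a source of NADPH, by -1.17, thioredoxin (Txn1) by -1.17 and the exporter Abcc1 by -1.32. Hmox1 and Txnrd1 differed by -0.42 and -0.32. Of glutathione transferases and glucuronosyltransferases 8 of 21 were at least 2-fold higher and 2 lower by their measured levels (38.1% and 9.5%). Gsto2 and Gstt1 differed by 5.39 and 3.36, Mgst2 by -1.68 and Gsta2 by -2.30, at least 3.34-fold as a bound, and the second probe of Gstt1 gave 0.52. Gsto2 stood at 1.61, 0.17, 4.38 and 5.56, with both Clk/Clk arrays high. Of the multidrug transporters, Abcb1b differed by -1.32 and Abcb1a and Abcg2 by 0.01 and -0.01.

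**Figure D3:**
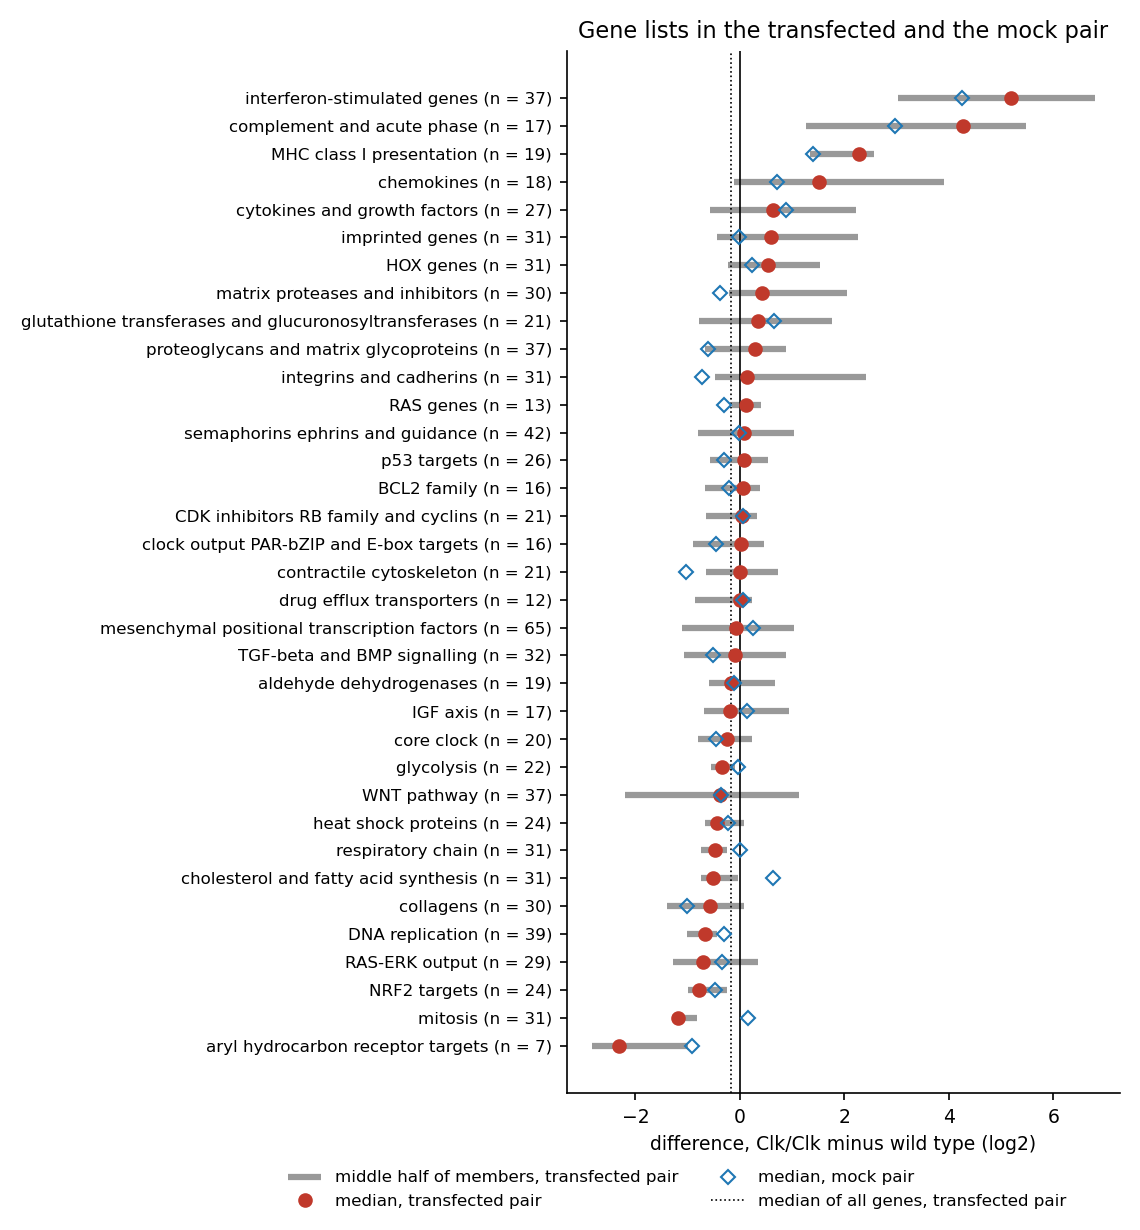
Median difference (Clk/Clk minus wild type, log2) of 35 gene lists in the transfected pair (red circles, with grey bars from the lower to the upper quartile of members) and in the mock pair (blue diamonds). The dotted line is the median of all genes in the transfected pair, -0.18, and n is the number of members measured there. Interferon-stimulated genes lead in both pairs, at 5.20 and 4.25, and cholesterol genes sit at -0.52 in the transfected and 0.63 in the mock pair.

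Matrix proteoglycans and glycoproteins differed in both directions. Dcn, which encodes decorin, a proteoglycan on collagen fibrils, stood at 4.42 and -1.45 on the mock and transfected wild type arrays and 7.63 and 7.30 on the Clk/Clk arrays. Its difference of 8.74 is 428-fold, and the transfected wild type array was low while the other 3 were high. Lum, a relative of decorin, was not well above background in transfected wild type cells and at least 123-fold higher, and Mfap4 and Mfap2, proteins of elastic microfibrils, stood at 0.83, -3.22, 4.78 and 5.16 and 0.68, -4.94, 4.19 and 3.13 and differed by 8.38 and 8.07. Ogn, another small proteoglycan, ran the other way. It stood at 2.30, 4.24, 1.35 and -1.85 and was 67.8-fold lower, with transfected Clk/Clk the low array. Over the whole list 8 of 37 (21.6%) were at least 2-fold higher and 6 (16.2%) lower, beside 15.2% and 12.1% of all genes, with a median of 0.28 that became -0.39 with arrays scaled to their medians.

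Collagens counted 4 of 30 measured members 2-fold or more higher and 11 lower by as much, or 13.3% and 36.7% beside 15.2% and 12.1% of all genes, a median of -0.57 and -1.02 in mock cells. The cartilage collagen Col2a1 had the largest downward bound among genes whose probes went the same way, at 1.08, 2.89, -6.69 and -5.50 with both Clk/Clk arrays not well above background, at least 170.4-fold lower. Col7a1, the anchoring fibril collagen, stood at 7.03, 5.90, 1.66 and 2.94 and was 7.74-fold lower, Col6a3 differed by -2.57 and Col3a1 by -2.25. The abundant chains Col1a1 and Col1a2 differed by -1.16 and -0.52. Col8a2 and Col12a1 were higher, at 3.09 and 2.52. Among matrix proteases and their inhibitors 10 of 30 were at least 2-fold higher and 4 lower (33.3% and 13.3%). Mmp3, a stromelysin, stood at -2.10, -1.30, 2.63 and 3.89 and was 36.6-fold higher, Mmp9, a gelatinase, was at least 103-fold higher, and Mmp2 differed by 2.01. The plasminogen activator gene Plat and the receptor gene Plaur differed by -1.89 and -1.18.

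Signals and adhesion molecules around the matrix were split. Bmp4, a bone morphogenetic ligand, stood at 1.82, 1.90, -2.27 and -3.57 and was 44.2-fold lower, and Tgfbi, an adhesive protein induced by TGF-beta, and Tgfb2 differed by -3.16 and -2.42. Gdf10 and Gdf6 were at least 75.4-fold and at least 27.2-fold higher. Cdh13, a cadherin without a cytoplasmic domain, stood at -0.02, 0.96, -5.02 and -3.80, not well above background in mock Clk/Clk cells, and was 27.0-fold lower. Cdh11, the mesenchymal cadherin, differed by 2.99, Itga4 was at least 142-fold higher, and the fibronectin receptor subunit Itga5 differed by -1.48. Contractile genes had a median of 0.01 in the transfected and -1.04 in the mock pair. Acta2 and Tagln, smooth muscle actin and its partner, were bright on both transfected arrays and differed by -0.27 and 0.29.

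Genes that record the body region of a fibroblast differed widely. Of HOX genes 12 of 31 were at least 2-fold higher and 2 lower (38.7% and 6.5%, beside 15.2% and 12.1% of all genes), with a median of 0.54 that became -0.13 with arrays scaled to their medians. The posterior genes Hoxc13 and Hoxc10 stood at -5.19 in transfected wild type and -0.64 in transfected Clk/Clk cells and at -4.49 in transfected wild type and -0.93 in transfected Clk/Clk cells, differences of 4.55 and 3.56, and Hoxa10 and Hoxa11 were at least 7.32-fold and at least 4.99-fold higher, while the anterior genes Hoxa2 and Hoxa3 differed by -2.91 and -1.58. In mock cells Hoxc13 differed by -1.94 and Hoxa11 by -2.06. Of positional transcription factors 18 of 65 were at least 2-fold higher and 17 lower (27.7% and 26.2%). Tbx5 and Pitx1, which mark fore and hind limb, were at least 37.1-fold and at least 57.3-fold higher, as was the branchial arch gene Lhx8 (at least 186-fold). Foxc2 and Irx3 differed by -4.64 and -4.54, and Foxd1 at least 39.5-fold lower. Foxc2 stood at 1.99, 2.85, -1.67 and -1.80, with both Clk/Clk arrays low.

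Imprinted genes and genes of the WNT pathway were spread as widely. Of 31 imprinted genes 12 were at least 2-fold higher and 5 lower (38.7% and 16.1%, beside 15.2% and 12.1% of all genes). Their median was 0.60 in transfected and -0.01 in mock cells. The former became -0.18 with arrays scaled to their medians. H19, a maternally expressed RNA, stood at 2.51, -4.01, 3.27 and -0.39 and differed by 3.62, its neighbour Igf2 and the zinc finger gene Peg3 were higher, at least 26.4-fold and at least 45.9-fold, while Asb4 was at least 14.2-fold lower by 1 probe and differed by -0.75 by another. In the WNT pathway 10 of 37 genes were at least 2-fold higher and 12 lower (27.0% and 32.4%). The secreted antagonists Sfrp1 and Dkk3 stood at -5.18 in transfected wild type and 0.58 in transfected Clk/Clk cells and at -1.31 in transfected wild type and 3.33 in transfected Clk/Clk cells, differences of 5.76 and 4.64, and Frzb was at least 44.6-fold higher. The receptors Lgr4 and Fzd6 differed by -2.87 and -1.86, Lgr6 was at least 45.2-fold lower, and the amplifiers Rspo2 and Rspo3 were at least 28.3-fold and at least 7.89-fold lower.

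Metabolic genes differed by less. Cholesterol and fatty acid genes had a median of -0.52 in transfected and 0.63 in mock cells, with 3 of 31 at least 2-fold lower and 0 higher in the former and 0 and 7 in the latter. Hmgcs1, at the head of sterol synthesis, stood at 3.90, 4.75, 4.79 and 3.84, with mock wild type and transfected Clk/Clk the low arrays, so its difference was -0.91 in transfected and 0.89 in mock cells. Elovl6, a fatty acid elongase, differed by -1.48. Respiratory chain genes had a median of -0.48, with 2 of 31 at least 2-fold lower. In glycolysis the median was -0.34, and the lactate exporter Slc16a3 stood at 3.91, 4.69, 3.10 and 2.23 and differed by -2.46.

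Ranked over all named genes with agreeing probes, the 12 highest that were well above background on both arrays also held genes outside the lists above. Rarres2, which encodes the chemoattractant chemerin, came first at -1.94 and -4.53 on the mock and transfected wild type arrays and 5.63 and 6.13 on the Clk/Clk arrays, 1619-fold higher in the transfected pair. Plac8, a small protein of placenta and immune cells, stood at 5.75 and -3.45 in mock and transfected wild type cells and at 6.61 in transfected Clk/Clk cells, 1068-fold higher, with transfected wild type low and the other two high. Tgtp2, an interferon-induced GTPase, was 484-fold higher, Oas1f 302-fold higher and S100b, a calcium-binding protein of glia, 299-fold higher. Of genes not well above background in transfected wild type cells, Rpl39l, a ribosomal protein paralogue of male germ cells, was at least 1248-fold higher, and it stood at 1.37 in mock wild type cells. Tac1, a precursor of tachykinin peptides, was at least 248-fold higher, Arhgap9 at least 414-fold and the X-linked genes Tceal6 and Tceal3 at least 346-fold and at least 313-fold.

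On the downward side, Cbr2, a carbonyl reductase, stood at 0.15 and 2.36 on the mock and transfected wild type arrays and 0.71 and -3.26 on the Clk/Clk arrays and was 49.1-fold lower in the transfected pair, with a mock difference of 0.56. The neurofilament genes Nefm and Nefl went together. Nefm stood at -3.09, 1.15, -3.17 and -4.46, 48.9-fold lower, and Nefl was well above background only in transfected wild type cells among these 4 arrays, at least 37.2-fold lower. Lrrc17, an inhibitor of osteoclasts, was 43.1-fold lower, Cthrc1, a secreted protein of wound matrix, 34.4-fold, the chloride channel Ano1 30.2-fold, the phosphate exporter Ank 29.0-fold and Bves, a membrane protein of muscle, 23.6-fold. Ank stood at 2.70, 5.06, 0.02 and 0.20, with both Clk/Clk arrays low. Crybg1, Prkcb, Prdm6 and Sobp were at least 71.0-fold, at least 42.9-fold, at least 36.7-fold and at least 36.1-fold lower.

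The mock pair shows which differences were present without the vector. Across 15172 genes read in both pairs, the differences correlated at 0.574, a description over genes, which are not independent and share the slide and the probe design. Of 1860 genes at least 2-fold apart in both, 1610 (86.6%) went the same way, 1010 higher and 600 lower. Those 1010 are 42.4% of the genes higher in the transfected pair and 55.9% of those higher in the mock pair, and the 600 are 31.6% and 32.9% of the lower ones. Among genes well above background on all 4 arrays the highest in both pairs were Oasl2, Rarres2, Ifi27l2a, Zbp1, Ifit1 and Casp4, which encodes an inflammatory caspase that senses bacterial lipid (-3.02, -3.46, 4.20 and 2.82). The lowest in both were Coro2b, Bmp4, Unc5c, Dusp2, Foxc2 and Sema7a. Coro2b, an actin-binding protein, stood at -0.16, -0.06, -4.58 and -4.16, and the netrin receptor Unc5c at 0.29, 1.09, -3.52 and -3.46. For these genes both Clk/Clk arrays lay on the same side of both wild type arrays.

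Opposite directions were rarer, with 177 genes higher in the transfected and lower in the mock pair and 73 the other way. Mmp13, a collagenase, stood at 0.37, -4.76, -3.69 and -0.68, so its difference was 4.08 in transfected and -4.06 in mock cells. Sprr1a, a cornified envelope protein, stood at 0.44, -3.95, -3.81 and 0.05 and Slpi, a secreted protease inhibitor, at -0.71, -3.99, -3.84 and -0.17. In all 3 mock wild type and transfected Clk/Clk cells were high and the other 2 low. C1qtnf3, an adipokine, was spread the same way, at 4.73, 0.51, -0.25 and 2.84. Areg and Eva1c ran the other way, and Eva1c stood at -3.77, 1.83, -0.84 and -2.37. The probes of Klra1, Klra4, Klra15 and Klra16, natural killer cell receptor genes in a cluster of near-identical copies, moved together, with Klra4 at -2.49, 2.40, 1.98 and -1.59, and cannot be assigned to 1 gene. A second probe of Klra1 gave 1.67.

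**Figure D4:**
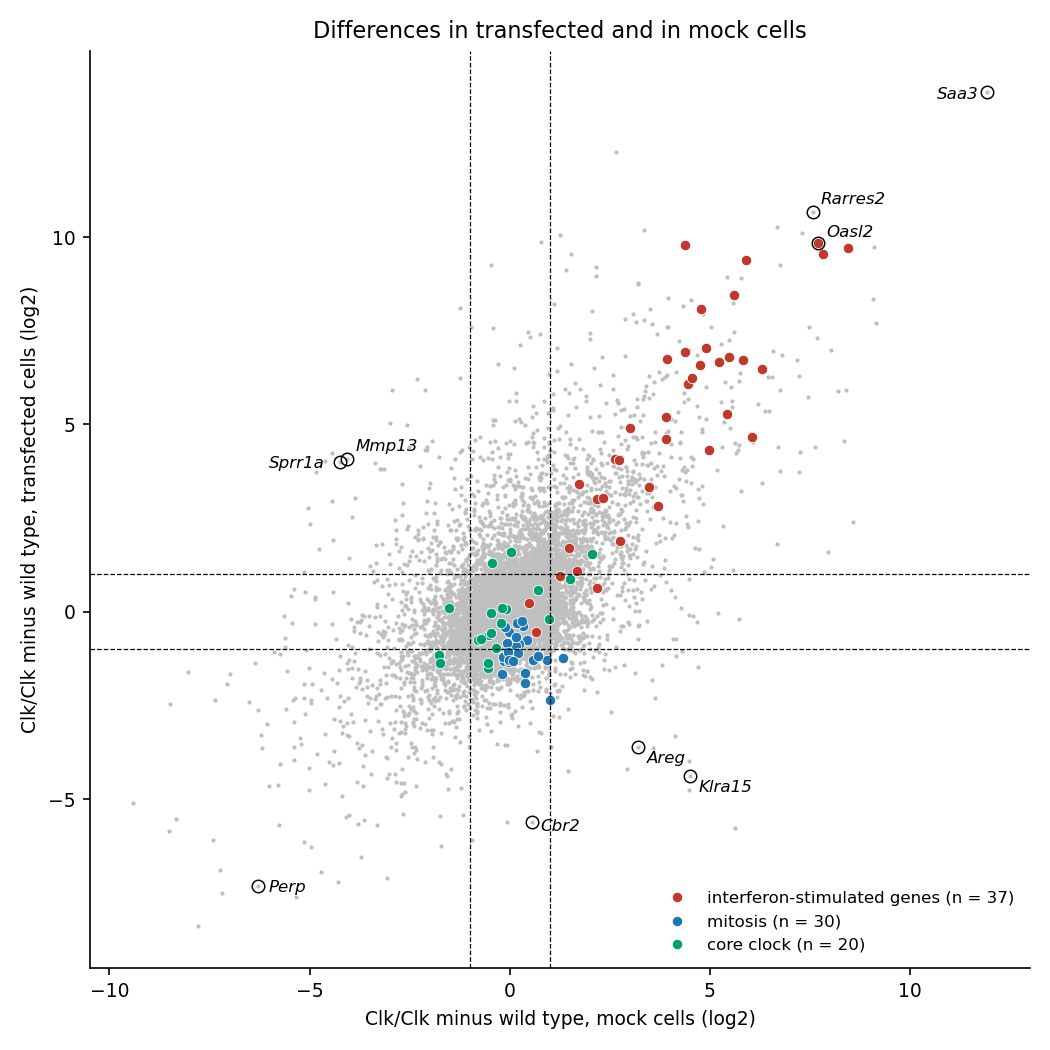
Difference between Clk/Clk and wild type (log2) in mock cells (x axis) and transfected cells (y axis) for each gene read in both pairs (grey points), with 3 gene lists in colour, dashed lines at 2-fold and open circles on named genes. Interferon-stimulated genes lie high in both pairs, and Mmp13 and Sprr1a (upper left) and Areg and Klra15 (lower right) lie in opposite directions.

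The differences were not spread evenly over chromosomes, a pattern looked for after the values were seen. Over 12587 genes well above background on all 6 arrays the median difference in the transfected pair was -0.23. By chromosome it ran from -0.53 on chromosome 16, -0.53 on 15, -0.52 on 3 and -0.51 on 4 to 0.10 on chromosome 5 and 0.07 on both 7 and 10. The share of genes below 0 was 76.5% on chromosome 16 and 43.3% on chromosome 5. In 25 Mb windows of at least 20 genes the median ran from -0.72 to -0.42 on chromosome 3 and from -0.05 to 0.20 on chromosome 5. The SD of the 20 chromosome medians was 0.216 in the transfected pair and 0.174 in the mock pair, 0.119 between transfected and mock wild type cells, 0.079 between transfected and mock Clk/Clk cells and 0.018 between mock Per2m/m and mock wild type cells. Relative to all genes, chromosomes 3, 5, 10 and 16 stood at -0.29, 0.33, 0.30 and -0.30 in the transfected and -0.27, 0.24, 0.39 and -0.30 in the mock pair. Chromosomes 15 and 7 differed between the pairs, at -0.30 and 0.30 in transfected and 0.08 and -0.08 in mock cells. From mock to transfected cells their medians changed by 0.47 and -0.18 in wild type and by 0.05 and 0.12 in Clk/Clk cells. The change on chromosome 15 thus lay mostly between the wild type arrays. Copy number was not measured.

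**Figure D5:**
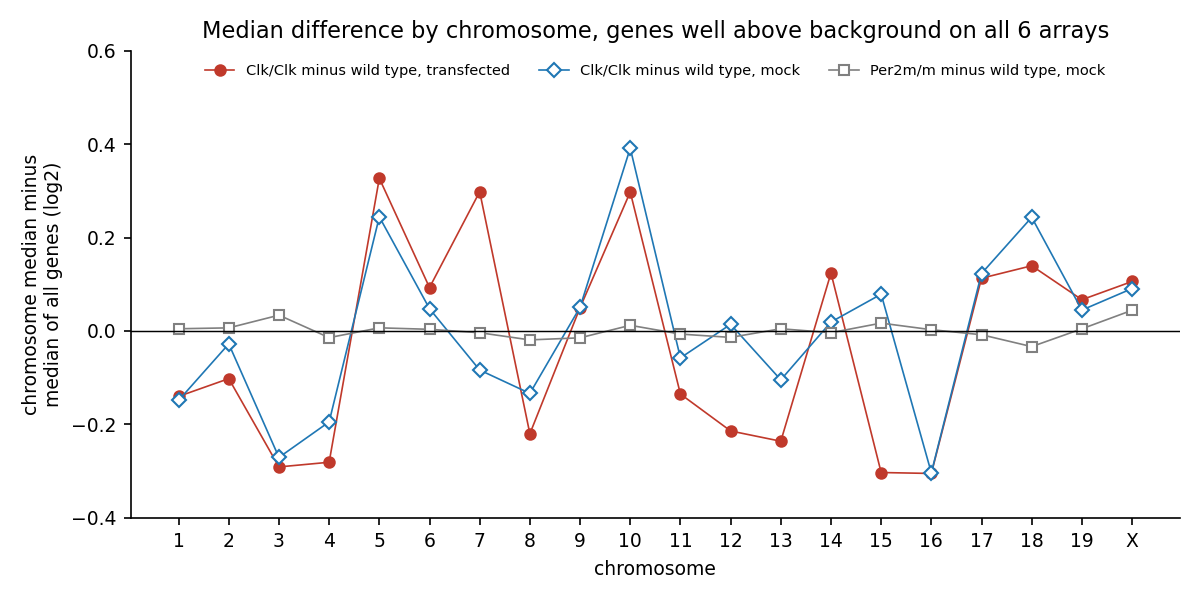
Median difference of the genes of each chromosome minus the median of all genes (y axis, log2) for genes well above background on all 6 arrays, in the transfected pair (red circles), the mock pair (blue diamonds) and mock Per2m/m against mock wild type cells (grey squares). Chromosomes 3, 4 and 16 lie below and 5 and 10 above 0 in both Clk/Clk pairs, while the grey squares lie close to 0 throughout.

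Clock itself lies on chromosome 5, and the genes around it were counted by their distance from its probe. Of 72 genes 10 to 20 Mb away and read in both pairs, 15 (20.8%) were at least 2-fold apart in the same direction in both, as were 7 of 44 (15.9%) within 5 Mb, 4 of 16 between 5 and 10 Mb and 27 of 222 (12.2%) between 20 and 40 Mb. Further than 40 Mb away the count was 55 of 574 (9.58%). Over all genes it was 1610 of 15172, and by chromosome, leaving out Y, the share ran from 7.92% on chromosome 7 to 13.1% on X. The distances were set after the values were seen, the counts near Clock are small, and no test was made.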

How the data were processed

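Total RNA of 6 fibroblast cultures was labelled with Cy3 and hybridised to single-colour Agilent arrays, 2 of which are compared here. The deposited scanner files hold probe intensity on a linear scale, processed within each array by Feature Extraction 10.7.1.1 with spatial and multiplicative detrending and surrogates, per the file headers. The submitters' processing notes name Agilent Feature Extraction 9.5.1.1. The authors' deposited table of the series holds linear intensity values that were equal in distribution between arrays (sorted values differed by at most 0.0315%) and correlated with the log2 processed signal at 0.998 or more on each array, so it was taken as quantile-normalized. The steps behind that table are not given in the sources used here.

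Control spots and outlier spots were removed (90 and 99 of the latter on the transfected wild type and Clk/Clk arrays), spots of a probe were averaged, and the 75th percentile of each array was subtracted on the log2 scale. Of 55681 probes 23154 had no gene name. The others were named from accessions, symbols or synonyms, and 1146 kept the name in the file. A gene is represented by its brightest probe that is well above background on at least 1 array. A ratio was formed where the brighter array of a pair was well above background, and a bound where the dimmer was not. A difference of at least 2-fold was counted, with no test, since each side has 1 array.

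The members and gene lists, 35 for pathways and 11 for markers, were chosen with earlier results of these data known. A further 3 lists (interferon ligands, interferon receptors and nucleic acid sensing), the GAAA repeat search and the chromosome medians were added after the values were seen. Named genes were the 12 highest and lowest with agreeing probes, the 8 largest bounds each way, the 6 largest each way with the same and with opposite directions in the mock pair, up to 4 members per list, and the clock, Hras, Aldh3a1, Xist and Y-linked genes. Others were chosen after their values were seen, for their known role. Some list members are counted but not reported here by name. Alternatives were the array median as scale, the deposited table, normexp background correction with limma 3.58.1 in R 4.3.3, 2 filters on dim probes, a mean over probes, a 4-fold limit, and dim members at their bound. The procedure was tested on simulated data with known fold changes. Python 3.11.15 with pandas 2.3.3 and numpy 2.4.6 was used, and matplotlib 3.10.9 for the figures. Promoter windows are from RefSeq on GRCm38.p6, while probe positions are on mm9, per the file headers.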

Additional observations from a re-analysis of the deposited data

Results flagged for a closer look

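Among genes measured in both pairs, 177 were at least 2-fold higher in transfected and lower in mock Clk/Clk cells than in wild type, and 73 the reverse. Given here are the 6 largest each way, by the smaller of both differences, among those well above background on all 4 arrays, leaving out genes with only a clone or model name. Each pair has 1 array a side, so the difference between the pairs was not tested. Upward in the transfected pair, Mmp13 differed by 4.08 in transfected and -4.06 in mock cells, Sprr1a differed by 4.00 in transfected and -4.25 in mock cells and Dpysl4 differed by 3.98 in transfected and -3.37 in mock cells, a brain-enriched phosphoprotein gene. Slpi differed by 3.82 in transfected and -3.13 in mock cells, Dnajb3 differed by 2.90 in transfected and -2.67 in mock cells and C1qtnf3 differed by 2.33 in transfected and -4.98 in mock cells.

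Downward in the transfected pair, Areg differed by -3.60 in transfected and 3.21 in mock cells and Eva1c differed by -4.20 in transfected and 2.92 in mock cells, a heparin receptor gene. The Klra probes read a cluster of near-identical receptor genes and may be 1 signal. Klra15 differed by -4.37 in transfected and 4.51 in mock cells, Klra4 differed by -3.99 in transfected and 4.47 in mock cells, Klra1 differed by -3.63 in transfected and 3.58 in mock cells and Klra16 differed by -3.33 in transfected and 4.13 in mock cells. Dpysl4 stood at 1.01, -5.15, -2.36 and -1.18 on the wild type mock and transfected and Clk/Clk mock and transfected arrays, with mock wild type the highest and transfected wild type the lowest.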

How the results depend on the processing

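No paired analysis was possible because each group has 1 array and the labels carry no replicate numbers. With arrays scaled to their medians, 1435 genes were at least 2-fold higher and 6562 lower, the median over all genes was -0.83 and the share going the same way in both pairs 90.5%. List medians under that scaling were -0.91 for the core clock, -1.45 for NRF2 and -2.99 for aryl hydrocarbon receptor targets, -1.34 for DNA replication, -1.85 for mitosis, 4.53 for interferon-stimulated genes, 1.61 for MHC class I and 3.61 for complement. In the deposited table the same lists had 0.019, -0.55, -2.15, -0.50, -0.94, 5.30, 2.61 and 3.82. With normexp the share was 89.6% and the medians were -0.12, -0.69 and -0.93 for clock, NRF2 and aryl hydrocarbon receptor targets, -1.05 for mitosis, 4.40, 1.91 and 2.31 for interferon, MHC class I and complement. With both arrays well above background, aryl hydrocarbon receptor targets stood at -1.84, interferon-stimulated genes at 4.91 and complement at 3.38. With dim members at their bound these were -1.84, 4.91 and 3.44, and the core clock -0.11. Without a filter 7212 genes were higher, the all-gene median was 0.22, the share 81.4%, and the medians -0.11, -1.84, 4.78 and 2.54 for the core clock, aryl hydrocarbon receptor targets, interferon-stimulated genes and complement. Ttn, a muscle protein gene at -5.19 in transfected wild type cells and not well above background in transfected Clk/Clk cells, changed sign, to 2.37, without a filter, where another probe is read, the one such change among named genes at least 2-fold apart under these settings; named genes closer to 0 can change sign, as under array medians, which lower all differences alike. At least 4-fold, 1152 genes were higher and 415 lower. Of 275 named genes at least 2-fold apart, 248 stayed so under array medians, 249 in the deposited table, 268 with means over probes and 236 of 267 with normexp. The signs of the medians of chromosomes 3, 5, 7, 10, 15 and 16 relative to all genes were the same under array medians, the deposited table and normexp. The cause of these shifts was not tested. Precision is limited by the single array a side, and dim genes by the background, which lay higher against the scale on the Clk/Clk array.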

Other observations

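Markers of other lineages were split in direction, apart from the few adipocyte markers. Of 4 adipocyte markers measured 3 were at least 2-fold lower. Pparg, the master regulator of fat cells, stood at 2.68 and 3.36 on the mock and transfected wild type arrays and -0.76 and -0.36 on the Clk/Clk arrays, a transfected difference of -3.72, and Cebpa, which acts with it, at 0.09, -0.33, -5.12 and -3.86 in the same order, a difference of -3.53. Both Clk/Clk arrays were low for both genes. Fabp4, a fatty acid carrier, differed by -1.78. Of 5 mesothelial markers measured 2 were at least 2-fold higher and 1 lower, with a median of -0.10. Wt1, a regulator of mesothelium and gonad, was not well above background in transfected wild type cells and at least 15.1-fold higher in transfected Clk/Clk cells. Of 9 cartilage and bone markers measured 2 were at least 2-fold higher and 3 lower. Sox9, the regulator of cartilage, differed by -1.78. Alpl, the bone phosphatase, was at least 6.79-fold higher. Neural and glial markers counted 3 of 9 measured at least 2-fold higher and 3 lower. Nes, which encodes nestin, was bright on all 4 arrays at 4.39, 4.86, 3.00 and 2.94 and differed by -1.92, while S100b ran the other way at 8.2.

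Guidance molecules were spread in both directions, with 11 of 42 measured members 2-fold or more higher and 8 lower by as much. These are 26% and 19%, beside 15.2% and 12.1% of all genes. Slit3 and Slit2, secreted ligands of ROBO receptors, stood at 2.90, -0.41, 3.28 and 3.15 and at 1.40, -0.25, 3.09 and 2.82, differences of 3.56 and 3.07, with transfected wild type the low array in both. Sema7a, a membrane-anchored semaphorin, stood at 2.95, 3.12, -0.66 and -0.69 and differed by -3.81, and the ephrin receptor Epha3 differed by -3.94. In the IGF axis 4 of 17 genes (23.5%, beside 15.2% of all genes) were at least 2-fold higher and 0 lower. The binding protein genes Igfbp2 and Igfbp7 stood among them at 2.81 and 1.91. Pappa, a protease that frees IGF, stood at 4.26, -0.27, 0.91 and 1.51, so it differed by 1.79 in transfected and -3.35 in mock cells. Of 16 BCL2 family genes 2 were at least 2-fold higher and 2 lower, 12.5% each way and near the 15.2% and 12.1% of all genes. Among them were the death promoter Pmaip1 at 1.54 and the survival gene Mcl1 at -1.09. Of 24 heat shock genes 1 was at least 2-fold higher and 2 were lower by as much (4.2% and 8.3%), with Dnajb1 at -1.11 and Hspb7 at 1.80.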
